A study of Mus musculus with 6 samples.

Results

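Expression of 10 genes of the TREM and C-type lectin group was examined in mouse bone marrow on 6 Affymetrix arrays. The genes are Trem1, Trem2, Trem3, Treml2, Clec5a, Clec4d, Clec4e, Clec4n and Clec7a, which encode receptors, and Tyrobp, which encodes an adaptor. Every probe set whose platform annotation gave exactly 1 gene symbol, that symbol being one of the 10, was taken. This gave 17 of 45037 probe sets and 10 of 18193 genes, and all 17 are reported. One group held 3 arrays of mice labelled as transplanted and carrying ASXL1-MT, with a disease likened in the labels to myelodysplastic syndrome. The control group held 3 arrays labelled as mock. Sample titles of both groups begin with BMT, for bone marrow transplantation. The groups are called ASXL1Mt and mock below. ASXL1 is a chromatin regulator that is often truncated by mutation in myelodysplastic syndrome. Per the series text, marrow of both groups was depleted of cells bearing CD3e (T cells), B220 (B cells) or TER-119 (red cell precursors). The labels give no strain, age, vector or donor cell, and do not say whether an array stands for 1 mouse or a pool. P-values therefore measure the spread between these arrays, which may be technical.

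TREM receptors are immunoglobulin-like surface proteins of myeloid cells with short cytoplasmic tails. They signal through Tyrobp (DAP12), a membrane adaptor whose tail carries an immunoreceptor tyrosine-based activation motif (ITAM) that recruits the kinase SYK. The myeloid C-type lectins bind sugars and lipids of fungi, mycobacteria and dying cells. Clec5a pairs with Tyrobp, Clec4d, Clec4e and Clec4n with the related adaptor Fcer1g, and Clec7a carries a single tyrosine motif of its own. Several of these receptors are abundant on neutrophils and monocytes, whereas Trem2 is best known from macrophages and microglia.

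In ASXL1Mt marrow 8 of the 10 genes were lower and 0 were higher at an adjusted p under 0.05 (limma, Benjamini-Hochberg over all genes). Over all 18193 genes 4.75% were lower and 6.63% higher by this rule. Those that fell were Trem1, Trem3, Treml2, Clec5a, Clec4d, Clec4e, Clec4n and Clec7a, by 2.03-fold to 19.7-fold. Tyrobp and Trem2 did not pass. The median change of the 10 genes, ASXL1Mt minus mock, was -1.37 on the log2 scale, against 0.11 for all genes. In 9 of the 10 genes, all but Trem2, every ASXL1Mt array lay below every mock array, which held for 14.4% of all genes. The count of 8 fell to 5 without ASXL1Mt replicate 1 (2.88% of all genes lower), to 2 without ASXL1Mt replicate 2 (1.44%) and to 0 without ASXL1Mt replicate 3 (0.654%). It was 2 without mock replicate 1 (2.09%), 2 without mock replicate 2 (1.3%) and 2 without mock replicate 3 (1.46%). In the fit that gave 0, limma had 9 of the genes lower and 1, Trem2, higher at an unadjusted p under 0.05, against 9.44% lower and 13.4% higher of all genes in that fit. With all 6 arrays, 9 were lower at that unadjusted threshold, against 10.9% of all genes.

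**Figure D1:**
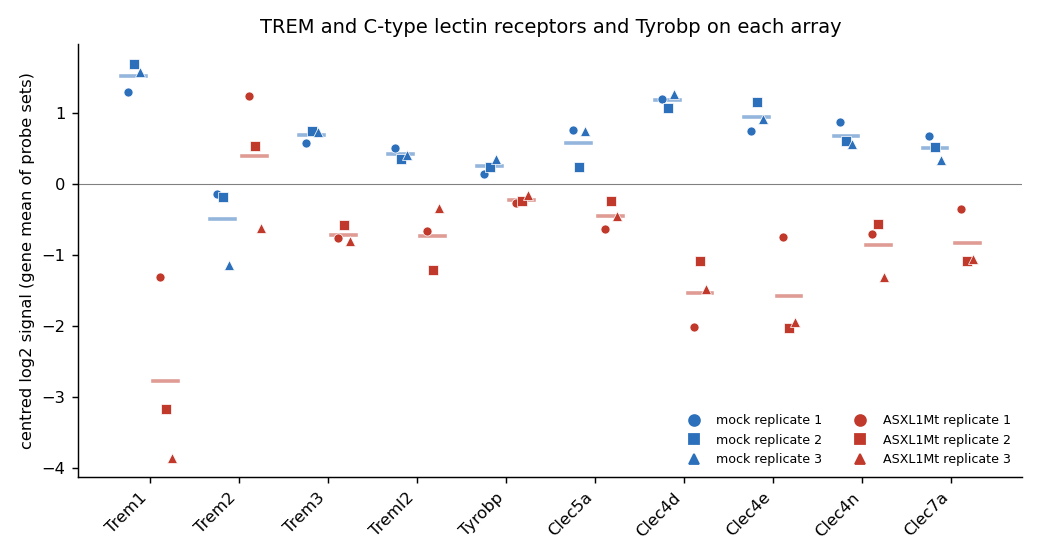
Centred log2 signal of the 10 genes (vertical axis, no unit, mean of a gene's probe sets) on the 3 mock arrays (blue) and the 3 ASXL1Mt arrays (red). Symbols mark replicates and bars mark group means. The red symbols lie below the blue ones in every gene but Trem2, with the widest gap in Trem1.

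The deposited values are log values, taken as base 2, centred for each probe set on the median of the 6 arrays. A value thus shows how far an array lies from the middle of that probe set, and not how strongly the gene is expressed. Where the groups separate, the highest ASXL1Mt array and the lowest mock array of a probe set lie equally far from 0 by this centring alone. Differences between arrays are unaffected. Levels of different genes cannot be compared. Part of the brightness was read from the rounding of the values, which gave 13 of the 17 probe sets as bright, that is with their 3 highest arrays at a signal of 256 or more if the base is 2. The 4 others were both probe sets of Trem2 and 2 of the 4 of Treml2. A probe set that fails this rule is not thereby shown to be dim. In bulk marrow, fewer cells of a type and less RNA per cell cannot be told apart.

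RefSeq entries of the sequence before the transcription start were found for 6 of the 10 genes, namely Trem1, Trem2, Clec5a, Clec4d, Clec4e and Clec7a. The 250 bases before the start were searched on both strands for 4 short motifs. The core bound by PU.1, a master transcription factor of myeloid cells, was searched as GAGGAA. It was present in 6 of 6 genes, against 23.3% of 32851 promoters of the same length. Trem2, which was not lower, had it too. The C/EBP motif, searched as TTGCNNAA, was present in 1 of 6 genes (9.56% of all promoters). The AP-1 motif TGANTCA was present in 1 of 6 (6.75%) and the TATA box letters TATAAA in 2 of 6 (12.4%). The TATAAA matches lay at bases -29 to -24 from the start in Clec4e and, on the opposite strand, at -209 to -204 in Clec5a. A match describes the letters only and shows no binding. Printed here are the gene with the largest fall (Trem1), the neighbouring pair Clec4d and Clec4e, Clec5a, and Trem2 as the gene that did not fall. Sequences run 5′ to 3′ on the strand of the gene (GRCm38.p6), with matches to the PU.1 core or the C/EBP motif on either strand in capitals (TTCCTC is the core on the opposite strand). Trem1 is at chr17:48232489-48232738 (plus strand), Clec4d at chr6:123261857-123262106 (plus strand), Clec4e at chr6:123289872-123290121 (minus strand), Clec5a at chr6:40585806-40586055 (minus strand) and Trem2 at chr17:48346151-48346400 (plus strand).
Trem1: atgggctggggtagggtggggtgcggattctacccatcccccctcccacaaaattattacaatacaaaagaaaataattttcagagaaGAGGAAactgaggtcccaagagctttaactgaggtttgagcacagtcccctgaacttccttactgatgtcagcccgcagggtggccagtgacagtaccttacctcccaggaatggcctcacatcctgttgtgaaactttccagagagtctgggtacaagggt
Clec4d: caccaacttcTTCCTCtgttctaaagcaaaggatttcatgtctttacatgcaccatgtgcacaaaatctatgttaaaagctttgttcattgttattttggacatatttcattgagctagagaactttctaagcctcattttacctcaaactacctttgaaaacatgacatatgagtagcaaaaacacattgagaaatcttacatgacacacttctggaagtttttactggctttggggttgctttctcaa
Clec4e: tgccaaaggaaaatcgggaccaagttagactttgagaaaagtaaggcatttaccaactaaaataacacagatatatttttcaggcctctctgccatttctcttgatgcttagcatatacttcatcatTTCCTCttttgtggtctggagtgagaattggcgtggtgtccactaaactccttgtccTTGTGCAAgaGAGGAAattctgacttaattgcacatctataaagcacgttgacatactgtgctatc
Clec5a: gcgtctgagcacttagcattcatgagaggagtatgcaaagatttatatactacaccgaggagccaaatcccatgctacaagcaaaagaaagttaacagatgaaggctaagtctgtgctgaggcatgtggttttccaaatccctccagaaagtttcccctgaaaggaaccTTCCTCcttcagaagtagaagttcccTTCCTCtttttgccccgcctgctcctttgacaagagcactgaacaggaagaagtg
Trem2: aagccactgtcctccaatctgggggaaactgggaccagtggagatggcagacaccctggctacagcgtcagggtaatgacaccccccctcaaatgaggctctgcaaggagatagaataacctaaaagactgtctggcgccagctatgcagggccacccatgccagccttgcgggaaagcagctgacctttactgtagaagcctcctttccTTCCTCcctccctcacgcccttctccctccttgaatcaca
In Clec4e the C/EBP match (bases -66 to -59 from the start) lies beside a PU.1 core match (-56 to -51). The other matches to the PU.1 core lay at -162 to -157 in Trem1, -240 to -235 in Clec4d, -123 to -118 in Clec4e and -40 to -35 in Trem2, and at both -81 to -76 and -55 to -50 in Clec5a. Clec7a had a match at -96 to -91, which is -90 to -85 from its other RefSeq start.

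Trem1, a receptor that amplifies inflammatory signalling in neutrophils and monocytes, fell the most of the 10. Its values, the mean of 2 probe sets, were -1.30, -3.16 and -3.85 on ASXL1Mt arrays 1 to 3 and 1.30, 1.70 and 1.59 on mock arrays 1 to 3. The ASXL1Mt arrays spread widely, with replicate 1 well above the other two, while the mock arrays lay close together. The change was -4.30 (SE 0.67, adjusted p = 0.0225 by limma), and 0.121% of all genes had a lower change. Both probe sets fell, 1447284_at by 13.4-fold (adjusted p = 0.0252 by limma) and 1460282_at by 29.0-fold (adjusted p = 0.0355). On 1460282_at the ASXL1Mt values were -1.46, -3.63 and -4.72, so the size of its fall depends on signals whose absolute level is not known. That probe set lost its call with an intensity trend in the variance model (adjusted p = 0.0656).

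Trem3, a mouse receptor encoded next to Trem1 that also pairs with Tyrobp, differed little within groups. It was -0.76, -0.58 and -0.80 on the ASXL1Mt arrays and 0.58, 0.75 and 0.74 on the mock arrays. Its change was -1.40 (SE 0.14, adjusted p = 0.0107 by limma), a fall of 2.64-fold. Of the 6 fits that each omitted one array, Trem3 passed in 5 and Trem1 in 1.

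Treml2 encodes TLT-2, a TREM-like receptor found on lymphoid as well as myeloid cells. As the mean of 4 probe sets it was -0.66, -1.21 and -0.33 against 0.51, 0.35 and 0.41, a change of -1.16 (SE 0.25, adjusted p = 0.0471 by limma). The groups did not overlap in any of the 4 probe sets, but only 1440298_at passed alone, at -1.14 (adjusted p = 0.0224). The change of 1440938_at was -0.35 and did not pass, that of 1444718_at -1.05 (adjusted p = 0.0914) and that of 1419837_at -2.09 (adjusted p = 0.232). On 1419837_at, ASXL1Mt replicate 2 stood apart at -3.64, with -0.40 and -0.57 on the other two. Averaging only its 2 bright probe sets gave a change of -0.74. The gene did not pass under robust eBayes with a trend (adjusted p = 0.0571), nor in any of the 6 leave-one-out fits.

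Trem2, a receptor for lipids and lipoproteins, overlapped between the groups. Probe set 1421226_at was 1.84, 1.30 and -1.43 on the ASXL1Mt arrays and -1.19, 0.10 and -0.10 on the mock arrays. On 1421792_s_at the ASXL1Mt values were 0.65, -0.22 and 0.22 and the mock values 0.91, -0.46 and -2.18. The arrays of a group differed by more than the group means on both. For the gene the change was 0.88 with a 95% interval from -0.52 to 2.28 (adjusted p = 0.360 by limma), which holds both a small fall and a rise of more than 2 log2 units. Neither probe set was called bright.

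Tyrobp, the adaptor of Trem1, Trem2, Trem3 and Clec5a, had a small difference without overlap of the groups. It was -0.26, -0.24 and -0.14 on the ASXL1Mt arrays and 0.14, 0.25 and 0.36 on the mock arrays. The difference was -0.47 (SE 0.13, adjusted p = 0.0845 by limma), or 1.38-fold, with an unadjusted 95% interval from -0.80 to -0.13. Under the 7 alternatives for scale, variance and choice of probe sets described at the end, limma called it in 2. The adjusted p was 0.0331 under robust eBayes with a trend and 0.0404 where each gene was its least variable probe set. It gave an adjusted p from 0.0587 to 0.0922 in the others. None of the 6 leave-one-out fits called it. Each receptor was also set against Tyrobp on the same array, in 9 comparisons, including receptors that do not pair with it. Trem1 minus Tyrobp was -1.04, -2.92 and -3.71 on the ASXL1Mt arrays and 1.16, 1.45 and 1.22 on the mock arrays. Relative to Tyrobp, Trem1 thus differed by -3.83 between the groups, Clec4d by -2.24, Clec4e by -2.05 and Clec5a by -0.56. A two-sided exact permutation test over 3 against 3 arrays cannot go below p = 0.10. This exact test gave p = 0.10 for 7 of the 9 receptors (0.129 adjusted over the 9), 0.20 for Clec5a (0.225 adjusted) and 0.30 for Trem2 (0.30 adjusted). None could pass.

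**Figure D2:**
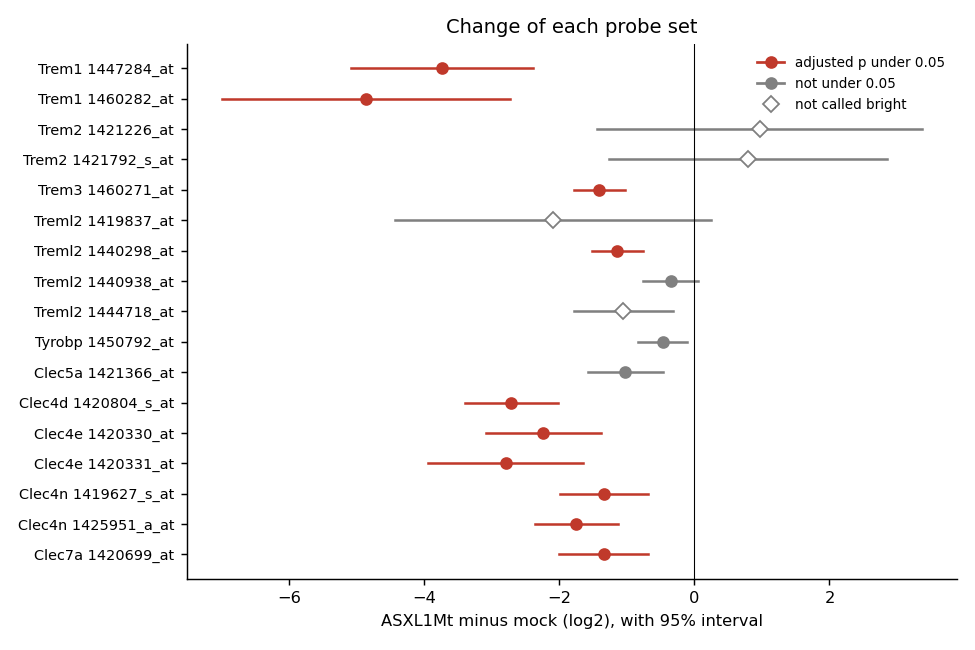
Change of each of the 17 probe sets (horizontal axis, ASXL1Mt minus mock, log2) with its unadjusted 95% interval from limma. Red marks the 10 probe sets with an adjusted p under 0.05, grey the others, and open diamonds the 4 not called bright. All 10 red probe sets lie below 0.

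At the level of probe sets 10 of 17 were lower and 0 higher at an adjusted p under 0.05 by limma, where 3.37% of all probe sets were lower and 4.73% higher. At an unadjusted p under 0.05, 13 were lower, against 10.2% of all probe sets. Values without overlap, ASXL1Mt below mock, were found in 15 of 17, against 13.7% of all probe sets.

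Among the C-type lectins the largest falls were those of Clec4d and Clec4e, which are neighbours on chromosome 6. Clec4d (MCL) and Clec4e (Mincle) recognise the mycobacterial lipid trehalose dimycolate and form a complex with Fcer1g. Clec4d was -2.01, -1.08 and -1.48 on the ASXL1Mt arrays and 1.21, 1.08 and 1.27 on the mock arrays. Mock arrays lay within a narrow band, far above the highest ASXL1Mt array. The change was -2.71 (SE 0.27, adjusted p = 0.0105 by limma), a fall of 6.54-fold. It remained past the threshold in 5 of the 6 leave-one-out fits. Its only probe set, 1420804_s_at, is of the _s_at type, which can match more than 1 transcript, so the signal of Clec4d cannot be told apart from that of a related transcript.

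Clec4e, averaged over 2 probe sets, was -0.75, -2.02 and -1.93 on the ASXL1Mt arrays and 0.75, 1.17 and 0.92 on the mock arrays. Here ASXL1Mt replicate 1 was the highest of its group, while it was the lowest for Clec4d. The change was -2.51 (SE 0.39, adjusted p = 0.0218 by limma), or 5.70-fold. Both probe sets fell, 1420330_at by 4.70-fold and 1420331_at by 6.92-fold. It remained past the threshold in 1 of the 6 leave-one-out fits.

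Clec4n encodes Dectin-2, a receptor for fungal mannans, and lies beside Clec4d. It was -0.71, -0.56 and -1.30 against 0.88, 0.61 and 0.56, a fall of 2.91-fold. The change was -1.54 (SE 0.24), with an adjusted p = 0.0227 in limma's test. Its probe sets 1419627_s_at and 1425951_a_at gave -1.34 and -1.74. None of the 6 leave-one-out fits called it, with adjusted p from 0.0559 to 0.0694.

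Clec7a encodes Dectin-1, the receptor for fungal beta-glucan. It was -0.35, -1.08 and -1.05 on the ASXL1Mt arrays and 0.68, 0.53 and 0.35 on the mock arrays, a fall of 2.54-fold. The change was -1.34 (SE 0.25), with an adjusted p = 0.0323 in limma's test. ASXL1Mt replicate 1 again lay above the other two. Of the leave-one-out fits 1 called it, the one without that array.

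Clec5a (MDL-1), which signals through Tyrobp, had the smallest change among the genes that passed. Its single probe set was -0.63, -0.24 and -0.44 against 0.76, 0.24 and 0.75, and mock replicate 2 lay apart from the other two mock arrays. The fall of 2.03-fold (SE 0.21 on the log2 scale) had an adjusted p = 0.0409 by limma among genes, and 0.0541 for the same values among probe sets. None of the 6 leave-one-out fits called the gene.

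**Figure D3:**
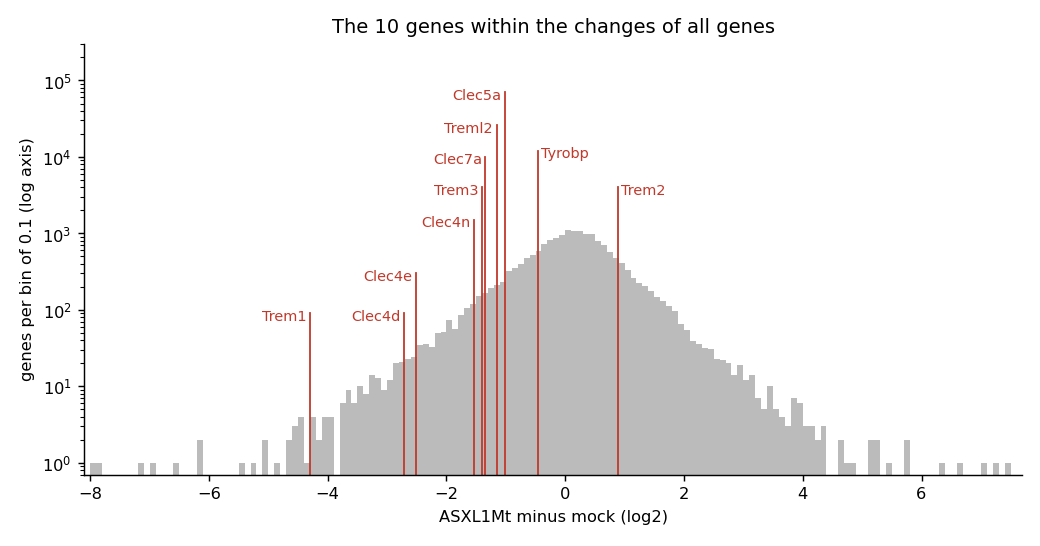
Changes of all 18193 genes (grey bars, counted per 0.1 on the log2 scale, log axis) with the 10 genes as red lines whose height has no meaning. Trem1 at -4.30, Clec4d at -2.71 and Clec4e at -2.51 lie in the lower tail, and Trem2 at 0.88 lies on the upper side.

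The order of the changes was Trem1, Clec4d, Clec4e, Clec4n, Trem3, Clec7a, Treml2, Clec5a, Tyrobp and Trem2. The 95% intervals of neighbours in this order overlapped throughout, so the order within it is not settled. The interval of Trem1 (-6.00 to -2.60) did not reach that of Tyrobp (-0.80 to -0.13), nor did that of Clec4d (-3.38 to -2.04). The same held for Clec4e (-3.49 to -1.53), Clec4n (-2.15 to -0.93) and Trem3 (-1.76 to -1.05). Those of Clec7a, Treml2, Clec5a and Trem2 overlapped that of Tyrobp. In the genome Trem1, Trem3, Treml2 and Trem2 lie in 1 cluster on chromosome 17, and its members differed from -4.30 to 0.88. Clec4n, Clec4d and Clec4e are adjacent coding genes, and all 3 fell.

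Genes with the most similar pattern were sought among 5173 genes whose probe sets were all bright, by the mean absolute difference of the 6 array values. For Trem1 these were Thbs1, an adhesive protein of platelet granules (0.194), the GTPase Rab20 (0.501) and Tceal8 (0.536). Thbs1 was -1.17, -3.41 and -4.17 on the ASXL1Mt arrays and 1.17, 1.41 and 1.53 on the mock arrays, with the same order of arrays within ASXL1Mt as Trem1. For Tyrobp they were Arhgdib (0.0247), Alox5ap (0.0297), which presents arachidonic acid for leukotriene synthesis, and the glycolytic enzyme Ldha (0.0401). These 6 points fall into 2 groups, so the measure is a description only.

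Ligands and partners of the receptors were taken as a list of 8, of which 7 were measured. Of these 2 fell and 0 rose (4.75% and 6.63% of all genes), with a median change of -0.58. Pglyrp1, a peptidoglycan-binding protein of neutrophil granules and a ligand of TREM-1, was -1.18, -0.61 and -1.08 on the ASXL1Mt arrays and 0.61, 0.70 and 0.62 on the mock arrays. It fell by 3.03-fold (adjusted p = 0.0141 by limma). Clu, a lipoprotein that binds TREM2, fell by 4.67-fold (adjusted p = 0.0133 by limma). Its change of -2.22 was -3.70 without probe sets of the _x_at and _s_at types, and it kept its call (adjusted p = 0.0273). Leaving out 1 array gave 0 to 2 calls in this list, with 0 without ASXL1Mt replicate 3 and 1 without mock replicate 2 or 3. In that fit with 0 calls limma had 3 lower at an unadjusted p under 0.05, against 9.44% of all genes. At the adjusted threshold, 0.654% to 2.88% of all genes were lower in the leave-one-out fits.

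Of 24 measured genes of ITAM signalling, 6 fell and 0 rose (4.75% and 6.63% of all genes), with a median change of -0.22. They were Pik3ap1, Hcst, Fgr, Bcl10, Syk and Fcer1g. Hcst (DAP10), an adaptor that recruits phosphoinositide 3-kinase and is encoded next to Tyrobp, was -0.77, -0.75 and -0.76 on the ASXL1Mt arrays and 0.80, 0.95 and 0.75 on the mock arrays. It fell by 3.03-fold (adjusted p = 0.00773 by limma) and was called in 6 of the 6 leave-one-out fits. Pik3ap1, which links receptors to the same kinase, fell by 3.25-fold, the Src family kinase Fgr by 2.61-fold and Bcl10, which carries the signal to NF-kB, by 1.80-fold. Pik3ap1's change of -1.70 was -0.72 when the probe set of smallest spread stood for each gene, and it kept its call. Syk, the kinase recruited by the motif, had a change of -0.73 (adjusted p = 0.0362) and Fcer1g, the adaptor of the Clec4 receptors, -0.60 (adjusted p = 0.0433). Both were named after their values were seen. Leaving out 1 array gave 1 to 4 calls, with 4 without ASXL1Mt replicate 1, 2 without ASXL1Mt replicate 2, 1 without ASXL1Mt replicate 3 and 3 without each of the mock replicates. Over all genes 0.654% to 2.88% were lower in these fits.

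Of 25 measured related receptors, 8 fell and 3 rose (4.75% and 6.63% of all genes), with a median change of -0.59. Cd300ld, an activating receptor of the CD300 family, fell by 5.68-fold (adjusted p = 0.00773 by limma) and Cd33, a sialic acid-binding receptor of myeloid cells, by 4.95-fold (adjusted p = 0.0126). Siglech, which marks plasmacytoid dendritic cells and signals through Tyrobp, rose by 11.9-fold (adjusted p = 0.0457), and Klrd1 (CD94) of natural killer cells by 7.19-fold (adjusted p = 0.0453). For both, mock replicate 1 was the lowest array, at -3.89 and -3.06. Without it their changes were 2.77 and 2.23, and each was called in 1 of the 6 leave-one-out fits. In the list, 6 passed without ASXL1Mt replicate 1, 4 without replicate 2 and 2 without replicate 3, and 7, 8 and 6 without mock replicates 1, 2 and 3. Of all 18193 genes, 1033, 422, 192, 876, 586 and 574 passed in these fits, in the same order.

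Lists of cell type markers differed in direction. The counts below are at an adjusted p under 0.05, where 4.75% of all genes fell and 6.63% rose. The mature neutrophil markers fell in 7 of 12 measured genes and rose in 0. Their median ran from -0.78 to -0.41 over the ASXL1Mt arrays and from 0.42 to 0.61 over the mock arrays. The 10 genes had medians from -0.93 to -0.68 and from 0.57 to 0.71. The largest change among the neutrophil markers was that of Il1r2, at -4.17. S100a8, S100a9, Camp and Ngp overlapped between the groups, with changes of -0.18, 0.00026, -0.17 and -0.15. Ltf, at -0.45, did not pass either. These markers that did not pass were named after their values were seen. Of 6 granulocyte progenitor markers 1 fell and 0 rose. Of 8 monocyte markers 0 passed in limma's test, with 1 lower and 1 higher at an unadjusted p under 0.05, and their medians ran from 0.02 to 0.10 in ASXL1Mt and from -0.18 to 0.08 in mock. Macrophage markers fell in 2 and rose in 1 of 11. The dendritic cell markers rose in 8 of 10 and fell in 0, with medians from 0.76 to 1.18 against -1.35 to -0.75. Megakaryocyte markers fell in 4 of 7, basophil and mast cell markers in 2 of 7 and eosinophil markers in 1 of 5, with 0 rising. Lists with markers of the depleted lineages had 0 genes lower at this threshold. Those higher were 2 of 7 for B cells, 2 of 8 for T and NK cells (Cd8a and Cd8b1) and 1 of 8 for red cells. At an unadjusted p under 0.05 limma had 0, 1 and 0 lower and 2, 2 and 4 higher, in that order. Of all 18193 genes, 5293 passed that threshold in either direction. The 1 lower was Cd3d, at -2.82, named after its value was seen. Changes below 0 were found in 5 of 7, 3 of 8 and 0 of 8. NK cells are not among the lineages named as depleted. Centred values hold no absolute level, so no marker could be called absent and the labelled cell type could not be checked by level. The part of these cell types in the changes of the receptors was not tested.

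**Figure D4:**
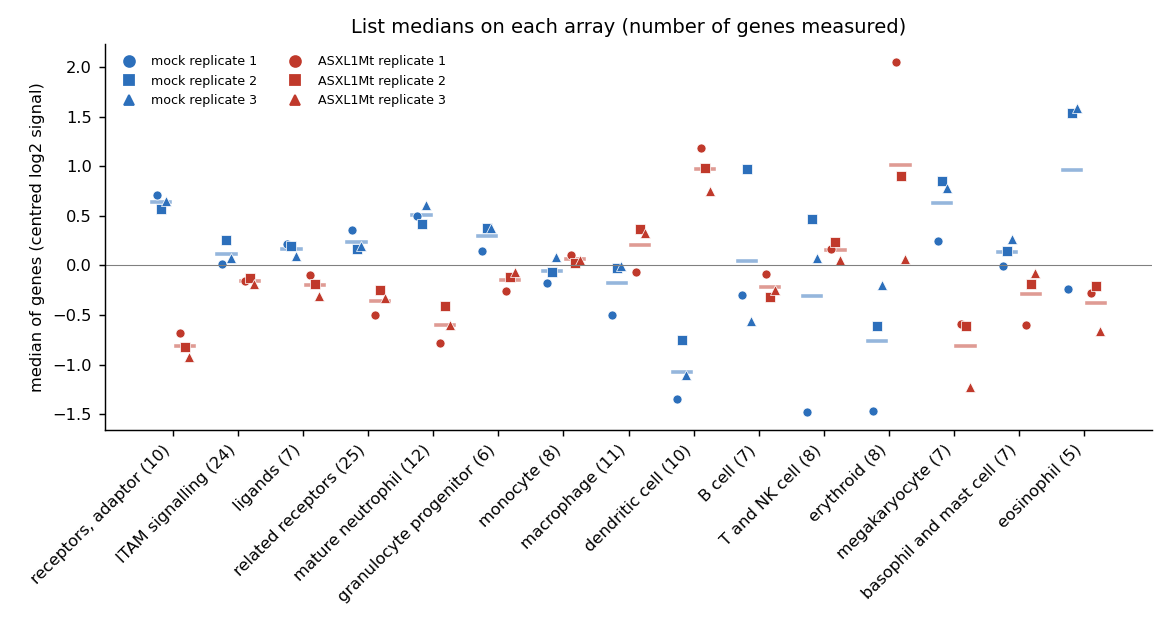
Median centred log2 signal (vertical axis) of the 10 genes, 3 pathway lists and 11 marker lists on each array, mock in blue and ASXL1Mt in red, with bars at group means and the number of genes measured in brackets. The medians of the 10 genes and of the mature neutrophil markers are both lower on all ASXL1Mt arrays, and that of the dendritic cell markers is higher.

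The count of calls moved more on leaving out an array than on changing the scale, by an amount that differed with the array left out. With the replicate number as a block, which keeps all 6 arrays, the count was 0, and 0 of all 18193 genes passed. At an unadjusted p under 0.05, limma had 9 of the 10 genes lower and 1 higher in that fit. The shares of all genes were 9.97% and 15.1%. Under 7 alternatives for scale, variance and choice of probe sets, the count of genes lower was 7 to 9 of the 9 or 10 tested, and 0 were higher. Over all genes 4.58% to 7.89% were lower in these fits. The count of 9 came from taking the least variable probe set of each gene, a choice that itself lowers p-values (7.89% of all genes lower). Between the lowest and highest of these fits the change of Trem1 ran from -4.38 to -3.74. In the leave-one-out fits it ranged between -5.03 and -3.76, that of Clec4d between -2.93 and -2.46, and that of Trem3 between -1.47 and -1.36.

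**Figure D5:**
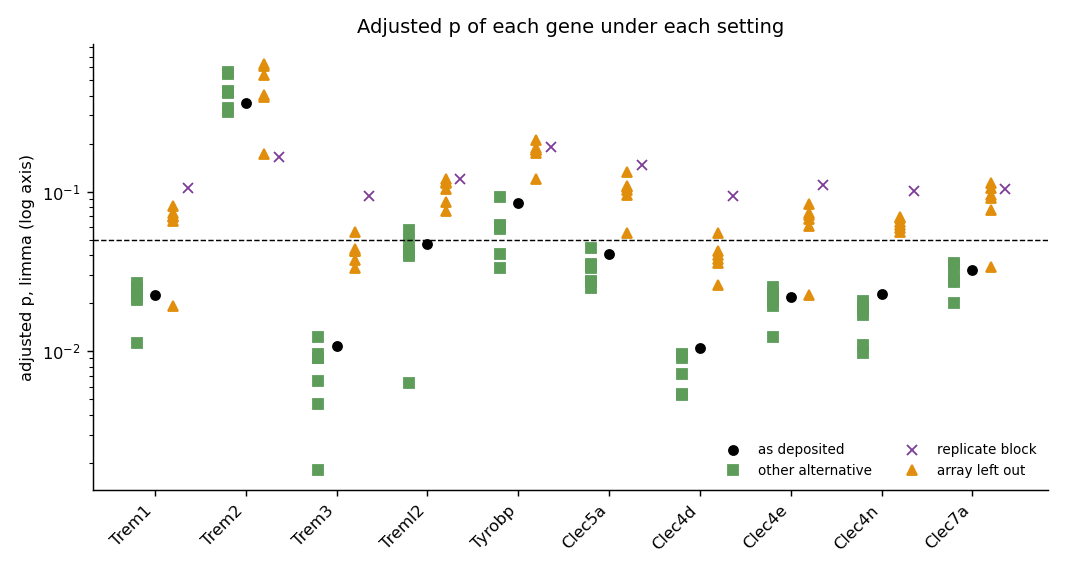
Adjusted p of each gene by limma (vertical axis, log scale) with the values as deposited (black), with 1 array left out (orange), with the replicate number as a block (purple) and under the 7 alternatives for scale, variance and choice of probe sets (green). The dashed line is at 0.05. Most orange symbols lie above the line, and those of Trem3 and Clec4d lie below it in 5 of 6 fits.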

How the data were processed

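The authors' signals were made with MAS5, per the submitters' processing notes. The deposited table holds log values, taken here as log2. Log base, centring and floor are not given in the sources used here. Row medians are 0 to within 5e-07. Symbols came from the platform annotation, in which 34945 probe sets had exactly 1, 932 had several and 9160 were unnamed. Of the 34945, 34741 matched a RefSeq gene of GRCm38.p6 by gene ID. Probe sets of a gene were averaged.

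Linear models (limma 3.58.1, R 4.3.3; lmFit, then eBayes) were fitted with group as the only term, over all probe sets or all genes, Benjamini-Hochberg adjustment and a threshold of 0.05. The gene-wise fit was tested on simulated data with known changes. Bright probe sets (17148, 38.1%) have their 3 highest arrays on multiples of the rounding step of single-precision logs of 8 and above.

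Members and lists were chosen with earlier results of these data known. Named were all members, up to 4 genes per pathway list with the largest change among those that passed, 3 genes most like Trem1 and Tyrobp, and the largest change of a marker list where given. Same-numbered arrays did not deviate together (r from -0.012 to -0.0088 over probe sets), so numbers were not taken as pairs. The number of arrays limits the precision.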

Additional observations from a re-analysis of the deposited data

How the results depend on the processing

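Alternatives were quantile and cyclic loess normalization, equal array medians, an intensity trend with and without robust settings, bright probe sets alone, the probe set of smallest spread, leaving out _x_at and _s_at probe sets, the replicate number as a block, and leaving out each array. Genes that fall can pass as bright through the mock arrays alone, so fits of bright probe sets support no call. No other filter on signal and no offset could be run on centred values. With the replicate number as a block (no pairing is shown by the labels or the data) limma called 0 of the 10 genes, 0 of their 17 probe sets, 0 ITAM signalling genes, 0 ligands and 0 related receptors. It called 0 of all genes, where 4568 had an unadjusted p under 0.05, among them 9 of the 10 genes as lower and 1 as higher (9.97% and 15.1% of all genes). With the probe set of smallest spread, chosen on the spread that the test uses, 10 ITAM signalling genes passed, of which 8 fell and 2 rose. In that fit 1436 of all 18193 genes fell and 2462 rose. With bright probe sets alone 9 ITAM signalling genes passed, of which 8 fell and 1 rose, and 4 ligands fell. Of the 9394 genes tested there, 1524 (16.2%) fell and 2599 rose. Leaving out an array gave 0 to 5 of the 10 genes, 0 to 7 of their 17 probe sets (12 or 13 lower at an unadjusted p under 0.05, against 8.3% to 10.2% of all probe sets), 1 to 4 ITAM signalling genes, 0 to 2 ligands and 2 to 8 related receptors. These fits have fewer arrays, and 192 to 1033 of all 18193 genes passed in them. Over these fits the change of Trem2 probe set 1421792_s_at ran from -0.0068 (without mock replicate 3, adjusted p = 0.995 by limma) to 1.54. The median change of all genes was 0.11 as deposited and 0.03 with equal array medians. Quantile normalization gave 0.02 and cyclic loess 0.0065. Under equal array medians, quantile normalization and cyclic loess, 8 of the 10 genes were lower at an adjusted p under 0.05. Over all genes 5.63%, 5.87% and 5.92% were lower in these fits, in that order. Where signals are dim, absolute levels that centring removed limit how far a fold can be read.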

Other observations

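Within the ASXL1Mt group no array was uniformly high or low over the 10 genes. Replicate 1 was the highest of the group in 4 genes (Trem1, Trem2, Clec4e and Clec7a) and the lowest in 3 (Tyrobp, Clec5a and Clec4d). Replicate 2 was the highest in 4 genes and the lowest in 3, and replicate 3 the highest in 2 and the lowest in 4. Clec4d and Clec4e, which are neighbours in the genome, had replicates 1 and 2 in opposite order, at -2.01 and -1.08 for Clec4d and at -0.75 and -2.02 for Clec4e. The SD over mock arrays was 0.10 for Clec4d and 0.21 for Trem1, against 0.47 and 1.32 in ASXL1Mt. In Clec5a and Tyrobp the mock SD was the larger, at 0.30 against 0.20 and 0.11 against 0.062.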
